A study of Rattus norvegicus with 2 samples.

Results

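Lpl, Adfp, Abhd5, Angptl4 and Scd1, genes of triglyceride supply, storage and breakdown, were examined in rat bmMSCs, that is in mesenchymal stem cells grown as adherent stroma from bone marrow. They were taken by symbol from a deposited table of differentially expressed genes, and all 5 were found, each in 1 row, among 2325 rows. One library came from cells of Sprague-Dawley rats 10 days after transfection with Pdx1 and Ngn3, transcription factors of pancreatic and endocrine development, and 1 library came from untransfected cells of the same strain at the same range of passages, 3 to 5. The control received no empty vector or mock transfection as far as the labels say, so the procedure and the introduced genes differ together, and the sources used here give neither the vector, the number of rats nor the culture time of the control.

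Triglyceride enters and leaves cells through a chain of enzymes and their partners. Lipoprotein lipase, encoded by Lpl, is secreted and splits the triglyceride of circulating lipoproteins into fatty acids, and Angptl4 is a secreted inhibitor of that enzyme. Adfp, whose current RefSeq symbol is Plin2, encodes perilipin 2, a protein that coats lipid droplets in most cell types. Abhd5 (also called CGI-58) is the co-activator of adipose triglyceride lipase, which starts the breakdown of stored triglyceride in the droplet. Scd1, Scd in current RefSeq, introduces a double bond into saturated fatty acids and so provides the oleate and palmitoleate used for triglycerides and membranes. Mesenchymal stem cells of marrow are known for their ability to become adipocytes, in which all of these genes are active.

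RefSeq promoters on the GRCr8 assembly were at hand for 4 of the 5 genes, that is for all but Lpl. The 250 bases upstream of the start site of 2 genes that were higher (Angptl4 and Adfp) and 2 that were lower (Abhd5 and Scd1) in transfected cells are shown so that the regions in front of genes with opposite changes can be read against each other. They are written 5′ to 3′ in the direction of the gene, with capitals where a searched motif matched. The positions are chr7:15258682-15258931 on the minus strand for Angptl4, chr5:106229019-106229268 on the minus strand for Adfp, chr8:130877622-130877871 on the plus strand for Abhd5 and chr1:253231732-253231981 on the minus strand for Scd1.
Angptl4: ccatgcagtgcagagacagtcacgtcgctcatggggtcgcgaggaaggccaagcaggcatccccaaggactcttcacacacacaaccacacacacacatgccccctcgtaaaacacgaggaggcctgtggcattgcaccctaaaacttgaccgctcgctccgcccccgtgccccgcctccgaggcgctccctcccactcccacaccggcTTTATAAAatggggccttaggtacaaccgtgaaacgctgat
Adfp: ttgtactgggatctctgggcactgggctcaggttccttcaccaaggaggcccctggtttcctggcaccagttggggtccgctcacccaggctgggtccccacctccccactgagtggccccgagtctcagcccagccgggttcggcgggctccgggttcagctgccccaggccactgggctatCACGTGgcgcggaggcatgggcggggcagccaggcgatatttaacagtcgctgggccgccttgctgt
Abhd5: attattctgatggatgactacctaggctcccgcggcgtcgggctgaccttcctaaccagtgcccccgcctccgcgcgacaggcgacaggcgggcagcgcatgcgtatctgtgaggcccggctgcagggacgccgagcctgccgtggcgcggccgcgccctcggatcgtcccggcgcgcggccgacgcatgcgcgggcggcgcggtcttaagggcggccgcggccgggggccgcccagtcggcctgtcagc
Scd1: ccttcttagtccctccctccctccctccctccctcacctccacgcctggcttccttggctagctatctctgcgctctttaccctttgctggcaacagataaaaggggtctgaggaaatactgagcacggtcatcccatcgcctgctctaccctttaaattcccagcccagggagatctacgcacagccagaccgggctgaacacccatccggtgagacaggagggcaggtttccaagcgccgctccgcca
These windows were searched on both strands for a DR1 element as bound by PPAR and RXR receptors (AGGTCA, any base, AGGTCA), a sterol response element (TCACNCCAC), the palindromic E-box CACGTG and the TATA box TATAAA. The Angptl4 window held TATAAA starting 39 bases before the start site, in a run that also read TATAAA on the other strand. The Adfp window held CACGTG starting 67 bases before the start site, and a further Adfp start site listed by RefSeq had none of the motifs in its own window. No searched motif was found in the Abhd5 and Scd1 windows. Across 33469 promoter windows of this length in the RefSeq table, TATAAA was present in 12.9%, CACGTG in 5.59%, the sterol element in 0.974% and the DR1 element in 0.0508%. By base composition Abhd5 stood apart with 74.4% G and C and 39 CpG dinucleotides, a CpG number exceeded by 1.16% of all windows. The Angptl4, Adfp and Scd1 windows had 60.0%, 67.2% and 58.8% G and C and 16, 13 and 10 CpGs, against medians of 51.2% and 5 over all windows. These matches describe the letters only, since binding and chromatin were not analysed here.

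The values are reads per cDNA cluster and RPKM, which divides reads by cDNA length in kilobases and by the library total. The library totals implied by reads, lengths and RPKM were 7415094 reads for the transfected and 7800831 reads for the untransfected library. Each RPKM and ratio is given with an exact 95% interval that covers counting error only. Each condition has 1 library, so the spread between cultures is unknown, and neither a test across replicates nor a p-value can be given. The table lists selected genes: no absolute log2 ratio in the authors' deposited table was below 1.00, and its false discovery rates reached 0.000996 at most. Every row had thus passed a change of about 2-fold. Pdx1 had 565 reads in the transfected library and 0 in the untransfected library (0.274 RPKM when the 0 is set to a floor of 3 reads). Of 21 stromal marker symbols 9 were in the table, 5 higher and 4 lower in transfected cells, beside 63.5% and 36.5% of all rows. Their summed level was 1276 RPKM in transfected and 2323 RPKM in untransfected cells. Most of that sum was Thy1 (CD90) at 322 RPKM in transfected and 1101 RPKM in untransfected cells and Itgb1 (CD29) at 519 RPKM in transfected and 1057 RPKM in untransfected cells, and Mcam and Alcam were also lower. The other 5 went the opposite way, with Ly6e 13.7-fold, Vcam1 9.62-fold, Nes 5.57-fold, Cxcl12 2.82-fold and Pdgfra 2.58-fold higher.

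Lpl, Angptl4 and Adfp were higher and Abhd5 and Scd1 were lower in transfected cells. Genes were called when the change was at least 2-fold and the interval of the ratio excluded 1. By that rule 3 of 5 genes were higher, where 63.5% of all rows were higher, and 2 of 5 were lower, where 36.5% of all rows were lower. The split of the 5 genes is therefore near that of the table as a whole. All rows include many entries without a gene symbol, so their shares are not those of named genes alone. With TMM factors, median-of-ratios factors or an interval that assumes biological variation between cultures (a coefficient of variation of 0.4), the calls were 2 higher and 2 lower, beside 31.6%, 22.0% and 33.5% of all rows higher and 36.5%, 36.5% and 17.2% lower. The median ratio of the 5 genes was that of Adfp, 2.26-fold, and that of all rows was 2.36-fold. Since every row had passed about 2-fold, such a median mainly reflects which direction holds more genes and is no typical size of change.

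**Figure D1:**
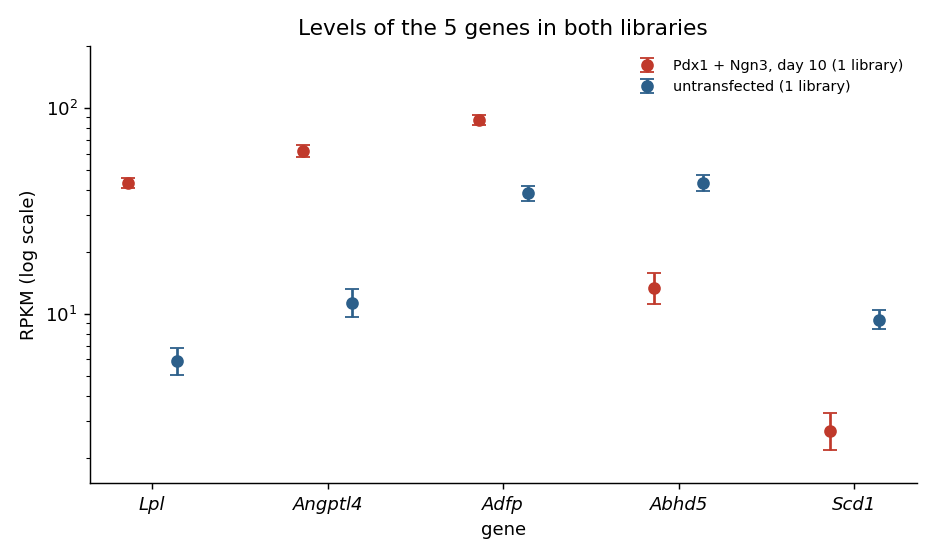
Levels of the 5 genes as RPKM on a log axis, with Pdx1 + Ngn3 transfected cells (day 10) in red left of untransfected cells in blue. Points are 1 library each and bars are exact 95% Poisson intervals of counting error. Lpl, Angptl4 and Adfp lie higher and Abhd5 and Scd1 lower in transfected cells, and no pair of intervals of the same gene overlaps.

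Lpl, the triglyceride-splitting enzyme outside the cell, showed the largest change of the 5. It had 1156 reads in transfected and 166 reads in untransfected cells, which is 43.1 RPKM (40.7 to 45.7) against 5.88 RPKM (5.02 to 6.85). The ratio was 7.33-fold (interval 6.22 to 8.67). Among the 1476 rows that were higher in transfected cells, 317 (21.5%) had a larger ratio. Lpl stood at rank 374 by RPKM among the 2325 rows in transfected cells and at rank 1225 in untransfected cells.

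Angptl4, the secreted inhibitor of that enzyme, was higher as well. It had 857 reads in transfected and 165 reads in untransfected cells, at 61.8 RPKM (57.7 to 66.1) and 11.3 RPKM (9.65 to 13.2). This was a ratio of 5.46-fold (4.62 to 6.49), and 29.7% of the higher rows exceeded it. The reads of enzyme and inhibitor were almost equal in untransfected cells, but the shorter Angptl4 cDNA (1871 against 3617 bases) gave it the higher level per length in both libraries. Its excess over Lpl, in RPKM, was 1.43-fold in transfected and 1.92-fold in untransfected cells. The ratio of Lpl to Angptl4 was 1.34 times as large in transfected as in untransfected cells (exact interval 1.05 to 1.70).

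Adfp, the droplet coat gene, had the highest RPKM of the 5 in transfected cells and the smallest change. Its 1202 reads in transfected and 560 reads in untransfected cells correspond to 87.2 RPKM (82.3 to 92.2) and 38.6 RPKM (35.5 to 41.9). The ratio of 2.26-fold (2.04 to 2.50) lies close to the lower limit of the table, and 84.0% of the higher rows had a larger one. Of the 5 directions, that of Adfp alone depended on scaling. Under median-of-ratios size factors the Adfp ratio was 0.982 (0.887 to 1.09), and under TMM factors 1.32-fold (1.19 to 1.46). Both sets of factors were computed on rows selected for change, most of them higher, and so lower every ratio. A gene near the median ratio of all rows, as Adfp is, falls to about 1 under median-of-ratios factors by construction. The turn therefore does not show how stable the Adfp ratio is. With the assumed variation of 0.4 in place of counting error alone its interval ran from 0.742 to 6.87 and included 1.

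Abhd5, which activates the first step of droplet lipolysis, was lower. It had 138 reads in transfected and 474 reads in untransfected cells, at 13.3 RPKM (11.2 to 15.7) and 43.3 RPKM (39.5 to 47.4), a 3.26-fold lower level (2.70 to 3.98). Of the 849 lower rows, 398 (46.9%) had a larger decrease. It was the gene with the highest RPKM of the 5 in untransfected cells, although its interval there overlapped that of Adfp. In transfected cells Scd1 alone of the 5 was lower. The annotated coding sequence of the quoted Abhd5 cDNA starts at base 1, so the 1402 bases behind its RPKM may not be the full transcript.

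Scd1, the desaturase, had 94 reads in transfected and 342 reads in untransfected cells. Its level was 2.70 RPKM (2.18 to 3.31) in transfected and 9.35 RPKM (8.39 to 10.4) in untransfected cells, 3.46-fold lower (2.75 to 4.39), and 42.3% of the lower rows fell further. It was the lowest of the 5 per length in transfected cells, while in untransfected cells Lpl was lower still. The interval of Scd1 overlapped that of Angptl4 in untransfected cells. Scd1 belongs to a family of closely related desaturases, and the authors' treatment of reads shared between relatives is unknown, so its count is uncertain to that extent.

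**Figure D2:**
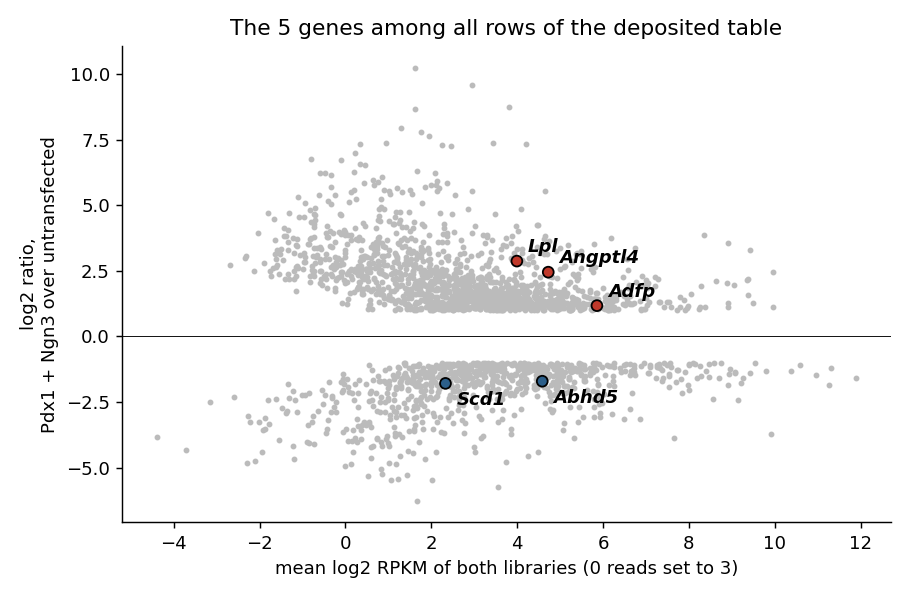
The 5 genes among all 2325 rows of the table, by mean log2 RPKM of both libraries (x) and log2 ratio of transfected over untransfected cells (y), with 0 reads set to 3. The empty band around 0 is the authors' selection limit. Adfp lies at its upper edge and the other genes lie within the clouds of higher or lower rows.

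Set in order of RPKM, transfected cells ran Adfp, Angptl4, Lpl, Abhd5 and Scd1, with no overlap of intervals between neighbours. Untransfected cells ran Abhd5, Adfp, Angptl4, Scd1 and Lpl, where Abhd5 and Adfp, and Angptl4 and Scd1, overlapped. Together the 5 genes held 3447 reads in transfected and 1707 reads in untransfected cells, a ratio of 2.12 after division by the library totals. That ratio was 1.24 under TMM factors and 0.924 under median-of-ratios factors, so the direction of the sum depends on the scaling. These factors have the limit given for Adfp.

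The ratio between genes within a library does not depend on the library totals, so it was compared for all 10 pairs. In 6 pairs a higher gene stands against a lower one, and since every row had passed about 2-fold, these pairs had to change by about 4-fold or more. Their sizes are therefore a description. Adfp stood at 6.57 times the RPKM of Abhd5 in transfected cells and at 0.891 times in untransfected cells, a 7.37-fold change in the balance of droplet coat to lipase co-activator (5.92 to 9.20). Lpl stood at 15.9 times Scd1 in transfected and 0.629 times Scd1 in untransfected cells, the largest change among the pairs at 25.3-fold (19.0 to 33.9). Lpl moved 23.9-fold against Abhd5 (18.5 to 31.0). Angptl4 moved 17.8-fold against Abhd5 (13.8 to 23.2) and 18.9-fold against Scd1 (14.1 to 25.3). The selection fixed no minimum for the other 4 pairs, whose genes changed in the same direction, and the exact interval excluded 1 for 3 of them. That interval covers counting error only. The assumed variation between cultures was not applied to pairs, so whether these 3 changes exceed the spread between cultures is unknown. Besides Lpl against Angptl4, Lpl moved 3.24-fold against Adfp (2.67 to 3.95) and Angptl4 moved 2.42-fold against Adfp (1.99 to 2.96). The exception was the pair of lower genes: Abhd5 stood at 4.91 times Scd1 in transfected and 4.64 times in untransfected cells, a change of 1.06 with an interval of 0.779 to 1.44. A difference between these genes of up to that size in either direction could not be detected at this depth, even without the unknown spread between cultures. The changes of Adfp against Abhd5 and Scd1 hold under any scaling of the libraries, unlike the ratio of Adfp itself.

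**Figure D3:**
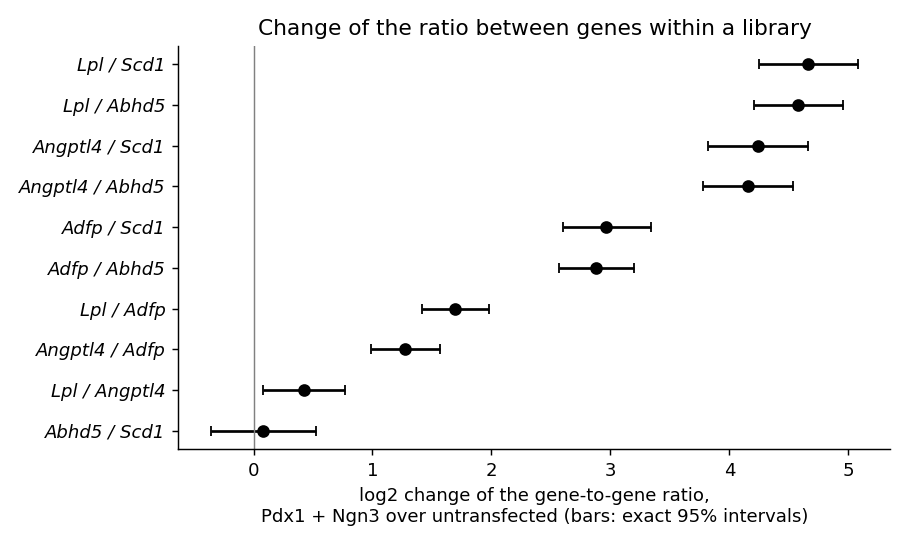
Change of the ratio between 2 genes within a library, as log2 of the transfected over the untransfected ratio, for all 10 pairs of the 5 genes. Points are from 1 library per condition and bars are exact 95% conditional intervals of counting error. The 6 pairs of a higher and a lower gene lie farthest from 0, where the table's 2-fold selection places them, and the bar of Abhd5 to Scd1 is the one that crosses 0.

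In the deposited gene ontology annotation the 5 genes shared few terms. Lpl and Angptl4 carried lipid homeostasis, a term of 4 rows in all. Lpl and Abhd5 carried carboxylesterase activity (6 rows), and Lpl and Scd1 fatty acid metabolic process (9 rows). Lpl was the single row annotated as a positive regulator of lipid storage, and it was higher. Abhd5 was the single row annotated as a negative regulator of lipid storage, and it was lower. Among 12 rows with any term of lipid storage or lipid homeostasis, a word search chosen after the annotation was read, 7 were higher and 5 lower, and among 15 rows with a triglyceride or acylglycerol term 8 were higher and 7 lower. Of 33 rows with a fatty acid term, 15 were higher and 18 lower. These are 58.3%, 53.3% and 45.5% higher, beside 63.5% of all rows. Of 15 rows with a lipoprotein term, Lpl included, 10 were higher and 5 lower (66.7% higher). Of 28 rows with a term of lipid binding or transport, 13 were higher and 15 lower (46.4% higher). The rows of the first search included Mest, an alpha/beta hydrolase linked to adipocyte size in mice and picked after its values were seen, with 62 reads in transfected and 6 reads in untransfected cells (10.9-fold, 4.72 to 30.8).

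The other genes of lipid handling were taken from 8 lists. These hold 209 symbols, with older and current names of a gene counted separately, and 29 of them were in the table, the 5 genes included. Of the 29, 13 were higher and 16 lower, with a median log2 ratio of -1.04 against 1.24 over all rows. As for the 5 genes, such medians mainly reflect which direction holds more genes. The share was 44.8% higher, below the 63.5% of the table, whose rows include many entries without a gene symbol. A share for named genes alone was not computed. Without the 5 genes, 10 of 24 were higher and 14 lower (41.7% higher, median -1.06). Under TMM factors 5 of the 29 were higher and 16 lower, and under median-of-ratios factors 3 were higher and 16 lower. The share of higher rows in the whole table also dropped, to 31.6% and 22.0%. No list was tested as a set.

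**Figure D4:**
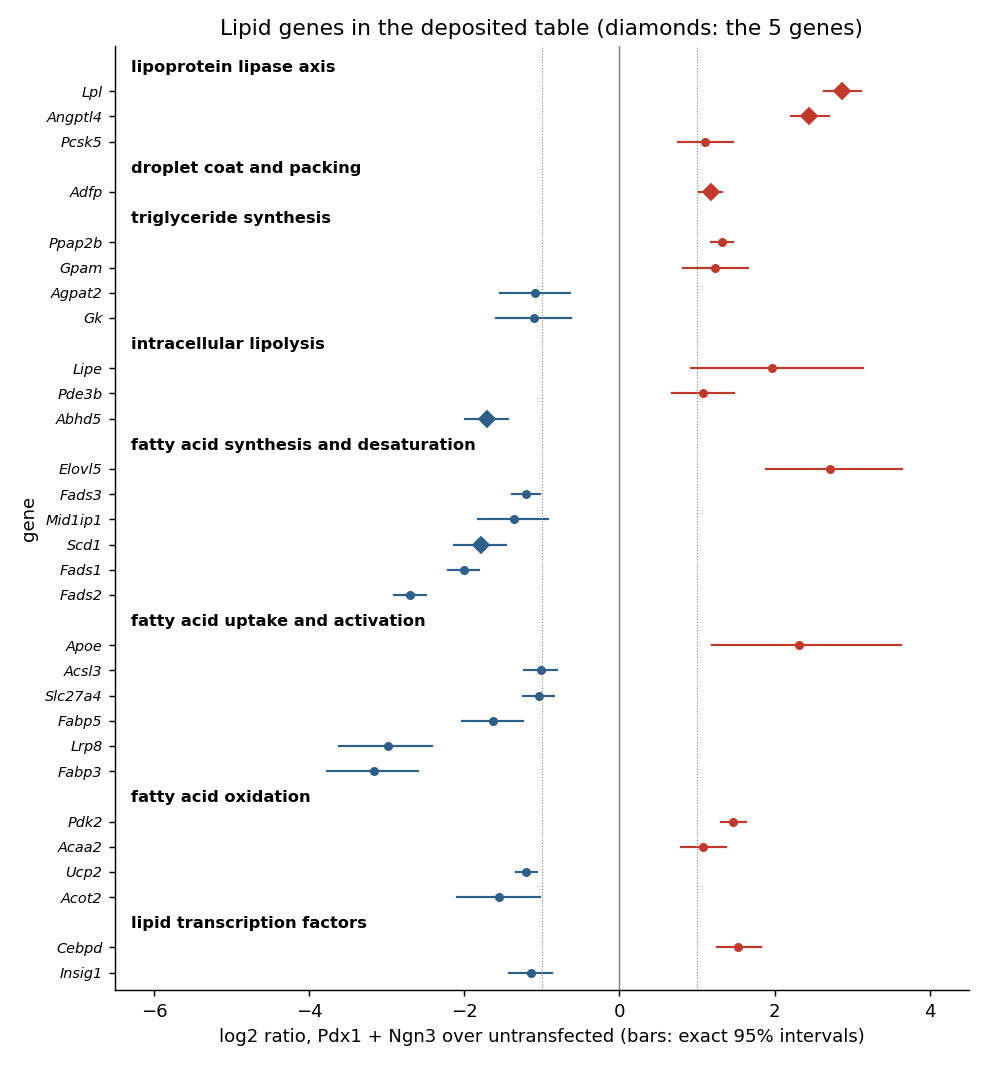
Log2 ratios of transfected over untransfected cells for the 29 listed lipid genes in 8 lists, with exact 95% intervals of counting error. Diamonds mark the 5 genes, red is higher and blue lower in transfected cells, and dotted lines mark a 2-fold change. Desaturation and uptake genes lie mostly on the lower side.

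Around lipoprotein lipase, 3 of 21 symbols were listed and all 3 were higher, where 63.5% of all rows were higher. Besides Lpl and Angptl4 this was Pcsk5, a proprotein convertase, with 204 reads in transfected and 100 reads in untransfected cells (2.15-fold, 1.68 to 2.75), whose direction turned under median-of-ratios scaling (log2 ratio -0.10) and whose call was also lost with TMM factors, RPKM + 1 and the assumed variation. Angptl1, a relative of Angptl4 by name, was on no list and was picked after its values were seen. It had 134 reads in transfected and 0 in untransfected cells. That is 47.0-fold higher when the 0 is set to 3 reads, with an exact lower limit of 37.7-fold. Of 28 symbols for droplet coats and packing Adfp was listed alone, and it was higher at the scaling used here. The other perilipins, the CIDE proteins and seipin were not analysed here.

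Genes of triglyceride synthesis were split, with 2 higher and 2 lower of 4 listed, beside 63.5% and 36.5% of all rows. Gpam, the mitochondrial acyltransferase of the first step, had 158 reads in transfected and 71 reads in untransfected cells (2.34-fold, 1.76 to 3.14). Ppap2b, a phosphatidate phosphatase, was 2.50-fold higher (2.27 to 2.76) at 62.0 RPKM in transfected and 24.8 RPKM in untransfected cells. Agpat2, the acyltransferase of the second step, had 61 reads in transfected and 136 reads in untransfected cells and was 2.12-fold lower (1.56 to 2.92). Gk, glycerol kinase, was 2.15-fold lower (1.55 to 3.02). None of these 4 calls held in all settings: Gpam and Ppap2b fell under 2-fold with TMM (log2 ratios 0.45 and 0.55) and median-of-ratios factors, Agpat2 and Gk did so with the listed sum and RPKM + 1, and all 4 were lost with the assumed variation of 0.4.

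In the list of intracellular lipolysis Abhd5 was lower and Lipe and Pde3b were higher, with a median log2 ratio of 1.07 that turned to -0.13 under median-of-ratios factors. Lipe, hormone-sensitive lipase, which acts after adipose triglyceride lipase, had 37 reads in transfected and 10 reads in untransfected cells (3.89-fold higher, 1.90 to 8.78). It stood at 1.35 RPKM in transfected and 0.346 RPKM in untransfected cells, far below Abhd5 in both. Pde3b, the phosphodiesterase that carries the antilipolytic action of insulin, was 2.10-fold higher (1.60 to 2.79), but fell just below 0 with median-of-ratios factors (log2 ratio -0.13). With TMM factors or the assumed variation Lipe alone of the pair was still called higher, and with median-of-ratios factors or RPKM + 1 neither was. Adipose triglyceride lipase itself (Pnpla2) was not analysed here.

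In the list of fatty acid synthesis and desaturation, chosen with earlier results of these data known, genes were mostly lower. There 5 of 6 listed genes were lower, Scd1 itself counted among the 5, beside 36.5% of all rows. The median log2 ratio was -1.58. Fads1 and Fads2, the desaturases of polyunsaturated fatty acid synthesis, and their relative Fads3 were all lower. The 3 genes lie next to each other in the RefSeq gene order of GRCr8, with 0 protein-coding genes between neighbours. Fads2 had 214 reads in transfected and 1460 reads in untransfected cells and was 6.49-fold lower (5.61 to 7.52). Fads1 was 4.02-fold lower (3.52 to 4.61), with 270 reads in transfected and 1143 reads in untransfected cells, and Fads3 was 2.30-fold lower (2.03 to 2.60). The Scd1 interval overlapped that of Fads1 and lay between Fads2 and Fads3. Mid1ip1, which promotes the activity of acetyl-CoA carboxylase, was 2.57-fold lower (1.89 to 3.54). The exception was Elovl5, an elongase of polyunsaturated fatty acids, with 87 reads in transfected and 14 reads in untransfected cells (6.54-fold higher, 3.69 to 12.5). With the assumed variation of 0.4 the calls of Fads3 and Mid1ip1 were lost, which left 3 genes lower.

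Fatty acid uptake and activation genes were lower in 5 of 6 listed cases, beside 36.5% of all rows, with a median log2 ratio of -1.33. Fabp3, the heart-type fatty acid binding protein, had 28 reads in transfected and 263 reads in untransfected cells (8.93-fold lower, 6.04 to 13.7). Fabp5, the epidermal form, was 3.10-fold lower (2.38 to 4.07) at 12.3 RPKM in transfected and 38.0 RPKM in untransfected cells. Lrp8, an apolipoprotein E receptor, was 7.94-fold lower (5.36 to 12.2). The fatty acid transport protein Slc27a4 was 2.05-fold and the acyl-CoA synthetase Acsl3 2.02-fold lower. Apoe, the apolipoprotein, had 38 reads in transfected and 8 reads in untransfected cells (5.00-fold higher, 2.30 to 12.4). The 5 lower calls became 3 with the listed sum or RPKM + 1, where Slc27a4 and Acsl3 fell under 2-fold (log2 ratios -0.93 and -0.91 with the listed sum), and 2, Fabp3 and Lrp8, with the assumed variation. The higher call of Apoe was lost under median-of-ratios factors.

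The 4 genes in the table from the oxidation list were split, 2 higher and 2 lower, beside 63.5% and 36.5% of all rows. Acaa2, a thiolase of mitochondrial beta-oxidation, was 2.12-fold higher (1.74 to 2.59), and its log2 ratio was -0.12 with median-of-ratios factors. Pdk2, a kinase that restrains pyruvate oxidation, was 2.77-fold higher at 65.9 RPKM in transfected and 23.8 RPKM in untransfected cells. Ucp2, a mitochondrial carrier, was at 55.6 RPKM in transfected and 128 RPKM in untransfected cells, and Acot2, a mitochondrial acyl-CoA thioesterase, had 40 reads in transfected and 123 reads in untransfected cells. Pdk2 and Acaa2 both lost their call under TMM (log2 ratios 0.69 and 0.31) and median-of-ratios factors, and none of the 4 was called with the assumed variation. Rows outside this list annotated with fatty acid catabolism or beta-oxidation were picked after their values were seen. Of these Ech1 (4.44-fold), Akt2 (3.38-fold), Echs1 (2.59-fold) and Hsd17b4 (2.10-fold) were higher, and Fabp3, named above, was lower. Of the 27 transcription factor and regulator symbols, 2 were listed. Cebpd, an early factor of adipocyte differentiation, was 2.89-fold higher (2.38 to 3.54). Insig1, which holds the sterol-regulated factor SREBP in the endoplasmic reticulum and is itself one of its targets, was 2.21-fold lower (1.83 to 2.69). The call of Cebpd was lost under TMM (log2 ratio 0.76) and median-of-ratios factors (0.33), and those of both genes were lost with the assumed variation. Pparg, Ppara, Ppard and Srebf1 were not analysed here.

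Because each library is a bulk sample, a change in the number of cells of a type and a change in RNA per cell cannot be told apart. Of 21 adipocyte marker symbols 3 were listed, and their summed level was 24.5 RPKM in transfected and 42.0 RPKM in untransfected cells. Nearly all of this sum was the adiponectin receptor Adipor2, which many cell types express, at 19.5 RPKM in transfected and 41.4 RPKM in untransfected cells. The other two were higher: Lipe, and Dlk1, a marker of preadipocytes that falls in mature adipocytes, with 43 reads in transfected and 3 reads in untransfected cells (15.1-fold higher, 4.83 to 76.0). The defining adipocyte genes Adipoq, Fabp4 and Plin1 were not analysed here. Macrophages also express Lpl and Adfp. Of 24 macrophage marker symbols 3 were listed, with a summed level of 457 RPKM in transfected and 216 RPKM in untransfected cells. Nearly all of this was Lgals3, galectin 3, which stromal cells express as well (2.20-fold higher). Cd68 had 26 reads in transfected and 5 reads in untransfected cells and Cd74 had 5 reads in transfected and 96 reads in untransfected cells. The part of these cells in the changes of the 5 genes was not tested.

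**Figure D5:**
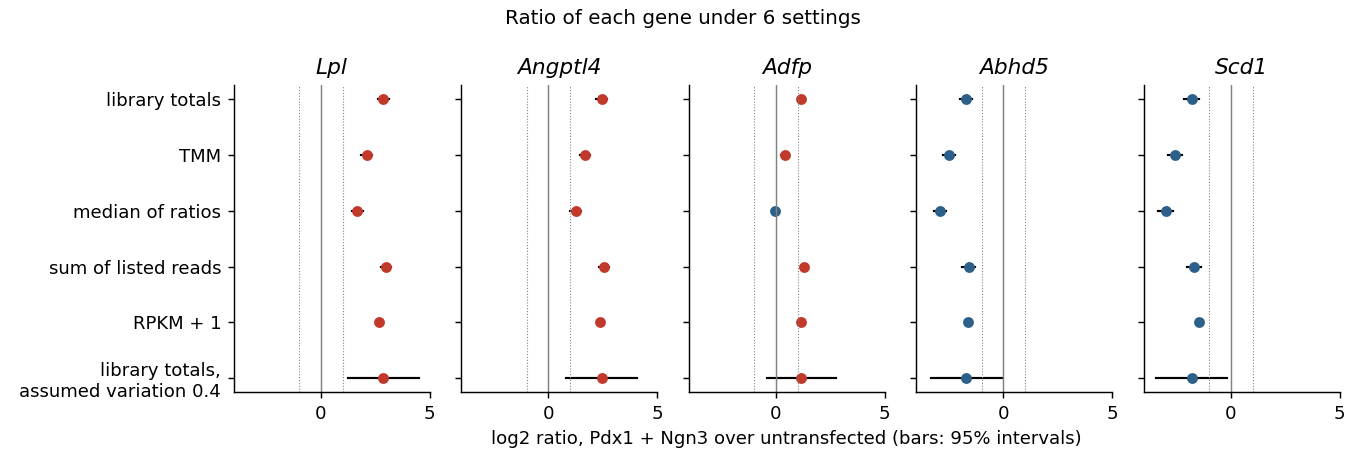
Log2 ratio of transfected over untransfected cells for each of the 5 genes under 6 settings, with 95% intervals where one was computed. Dotted lines mark a 2-fold change. Lpl and Angptl4 stay above 0 and Abhd5 and Scd1 below 0 in all 6 settings, while Adfp reaches -0.026 with median-of-ratios factors.

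Across the 6 settings for the ratio, Lpl ranged from 3.19-fold to 7.88-fold and Angptl4 from 2.38-fold to 5.88-fold higher. Abhd5 ranged from 3.04-fold to 7.51-fold and Scd1 from 2.79-fold to 7.95-fold lower. With the assumed variation of 0.4 the intervals were 2.39 to 22.5 for Lpl, 1.78 to 16.8 for Angptl4, 1.06 to 10.1 for the decrease of Abhd5 and 1.11 to 10.7 for that of Scd1.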

How the data were processed

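Poly(A)-selected, fragmented RNA was primed with random hexamers and sequenced on an Illumina GA instrument, per the labels' protocols. They name no strand-marking step, so reads of a gene and of an antisense partner cannot be told apart. Genome build rn4 is named in the submitters' processing notes, and no source used here names the aligner or the counting tool. The deposited counts are unscaled reads per gene, as the authors made them. The deposited RPKM were computed by the authors, with 0.001 for 0 reads, and the deposited log2 ratio is that of the RPKM values. The authors' deposited p-value and false discovery rate compare reads of 1 library per condition and were not used beyond describing the selection. Gene symbols are those deposited.

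Library totals were taken from counts, length and RPKM, which gave 1 value per library in all but 1 row of the untransfected library. Ratios carry Clopper-Pearson intervals and levels Poisson intervals (95%), pairs of genes exact conditional odds-ratio intervals (scipy 1.17.1). The protocol has no molecular identifiers, so PCR copies count as reads, and intervals and floors cover counting error only. A library at 0 was set to 3 reads. The interval code was tested on simulated data. Alternatives were TMM (edgeR 4.0.16), median-of-ratios factors (DESeq2 1.42.0), the sum of listed reads, RPKM + 1, a minimum of 30 reads over both libraries and an interval with an assumed biological variation (coefficient 0.4). The members, gene lists and motifs were chosen with earlier results of these data known. Text names the 5 genes, Pdx1 and, from each list, up to 6 genes in the table with the highest mean RPKM. Angptl1, Mest, Ech1, Akt2, Echs1 and Hsd17b4 were added outside that rule, as were the stromal markers Alcam, Vcam1 and Nes. One gene of the lists is not reported here and stayed out of the list counts. Markers of nerve and liver cells were also listed: 4 of 16 nerve symbols were in the table (3 higher, 1 lower), and 1 of 16 liver symbols (Ttr, higher). Of all rows 63.5% were higher and 36.5% lower.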

Additional observations from a re-analysis of the deposited data

How the results depend on the processing

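TMM, median-of-ratios and listed-sum scaling moved all log2 ratios by -0.78, -1.20 and 0.10. The first pair was computed on genes selected for change, so neither estimates a common level. Under TMM the log2 ratios were 2.10 for Lpl, 1.67 for Angptl4, 0.40 for Adfp (under 2-fold), -2.48 for Abhd5 and -2.57 for Scd1, with a median of 0.40 for the 5 genes and -1.82 for the 29 lipid genes, of which 5 were higher. Under median of ratios they were 1.67, 1.25, -0.026, -2.91 and -2.99 in the same order of genes, with medians of -0.026 and -2.24 and 3 lipid genes higher. With the listed sum the medians were 1.28 and -0.93. With the assumed variation of 0.4 Adfp kept its log2 ratio of 1.18 but its interval included 1, and 5 lipid genes were higher and 6 lower, against 33.5% and 17.2% of all rows. Of the list medians, those of the droplet and the lipolysis list turned to -0.026 and -0.13 under median of ratios, triglyceride synthesis (0.072) to -0.70 and -1.13 and the transcription factors (0.19) to -0.58 and -1.01 under TMM and median of ratios, and oxidation (-0.059) to 0.046 with the listed sum. The shift alone produces these turns by construction. The minimum of 30 reads and RPKM + 1 turned no direction among the 5 genes. No paired analysis was possible because each condition has 1 library, and no library could be left out. Depth limits Lipe, Apoe, Dlk1, Cd68, Cd74, Mest, Angptl1 and Pdx1, which had 10 or fewer reads in 1 library.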
